A study of Homo sapiens with 24 samples.

Results

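The genes of the YAP-TEAD pathway described here were YAP1, WWTR1, TEAD1, CCN1, CCN2, ANKRD1, AMOTL2, LATS2, AJUBA and AXL, taken from the deposited count table by the Ensembl identifiers of these symbols, and they are 10 of the 60617 genes in it. The cells were MDA686TU, a single established line of human head and neck squamous cell carcinoma grown in DMEM/F12 with fetal bovine serum. The study asked whether EGCG and resveratrol together prevent oral carcinogenesis in mice better than either agent alone. EGCG is the main catechin of green tea and resveratrol a polyphenol of grapes. Its RNA-seq asked what each agent and both together do to gene expression in these cells. The 4 groups of 6 libraries were the untreated control (0 µM of either agent), EGCG (40 µM), resveratrol (15 µM) and the combination (40 µM EGCG plus 15 µM resveratrol), each over 24 h. Resveratrol came from a DMSO stock and EGCG was dissolved in water. The solvent given to the controls is not stated, nor whether the EGCG group received DMSO. Resveratrol and its DMSO thus cannot be told apart in the comparisons with the control or with EGCG. The same holds where the effect of EGCG is compared with and without resveratrol. RNA was isolated 6 times per group, and no source used here says that these were separate cultures, so the p-values measure the spread between these samples, which may be technical.

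YAP1 and its paralog TAZ, the product of WWTR1, are coactivators that bind no DNA of their own and act through the TEAD factors, of which TEAD1 is one. The Hippo kinases MST1 and MST2 activate LATS1 and LATS2, which phosphorylate YAP and TAZ and so keep them out of the nucleus, and cell contact, matrix stiffness and actin tension change this balance. CCN1, CCN2 and ANKRD1 are the targets most often used as a readout, and the pathway is known for its activity in squamous carcinomas.

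Library totals ranged from 7034872 to 11735574 counts, 33693 genes had at least 1 count, and 15476 passed the filter on low counts and were tested. All 10 genes passed this filter. The 6 squamous epithelial markers KRT5, KRT14, KRT6A, KRT17, TP63 and CDH1 were all tested, and their summed FPKM was 5307 to 5647 in the control, 5069 to 5761 under EGCG, 4304 to 4578 under resveratrol and 4197 to 4603 under the combination. The 4 keratins were lower and CDH1 higher in both groups that received resveratrol, by the edgeR test used throughout. TP63 was higher under the combination, at a mean normalized count of 3722 against 3506 in the control, and was not called under resveratrol. CDH1 was also higher under EGCG, a call lost in either replicate set alone (edgeR adjusted p = 0.378 and 0.209). The median FPKM of TP63 and CDH1 was 53.9 and 77.3, so the sums were mostly keratin. In bulk RNA fewer cells of a type and less RNA per cell cannot be told apart. Of the 5 fibroblast markers only COL1A1 and COL1A2 were tested, and DCN was at 0 in 22 of 24 libraries. The endothelial markers summed to at most 0.236 FPKM and the leukocyte markers to at most 0.0788 FPKM in any library. The mitochondrial share of counts was 0.249 to 0.326% over all replicates 1 to 3 and 0.448 to 0.775% over all replicates 4 to 6.

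RefSeq promoters of GRCh38.p14, each of 300 bases with 250 before and 50 after a transcription start, were matched by symbol for 8 of the 10 genes, giving 12 promoters. TEAD1 and CCN1 had no entry. The TEAD motif GGAATG, or CATTCC on the other strand, stood in 7 of the 12 promoters and in 7 of the 8 genes, all but WWTR1. Of all 35116 promoters of this length 14.0% held it, a share per promoter and not per gene. AMOTL2, AJUBA and AXL had 2 promoters each, and the motif stood only in the downstream promoter, not in the first. The stretches of CCN2 and ANKRD1 are shown because they hold several copies and belong to 2 readout genes that behaved differently, and the others because each holds its gene's single copy upstream of a start. Capitals mark the motif, and each line runs 5′ to 3′ along the gene's strand.
CCN2, chr6:131951450-131951553, minus strand: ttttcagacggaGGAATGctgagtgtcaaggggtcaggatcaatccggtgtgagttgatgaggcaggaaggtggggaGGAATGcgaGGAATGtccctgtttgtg
ANKRD1, chr10:90921198-90921319, minus strand: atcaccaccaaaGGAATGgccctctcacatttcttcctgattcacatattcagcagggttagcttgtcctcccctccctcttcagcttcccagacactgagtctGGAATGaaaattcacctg
YAP1, chr11:102110273-102110302, plus strand: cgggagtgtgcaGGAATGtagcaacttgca
AMOTL2, chr3:134374499-134374528, minus strand: ctgaaactctcaCATTCCtggcatagcagc
AJUBA, chr14:22976884-22976913, minus strand: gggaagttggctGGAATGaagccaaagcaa
AXL, chr19:41226531-41226560, plus strand: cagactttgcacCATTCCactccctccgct

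CCN2 held 3 copies, starting 169, 104 and 95 bases before the start, a number found in 0.128% of all promoters. ANKRD1 held 2, at 220 and 128 bases, and at least 2 copies stood in 1.37% of promoters. LATS2 held its copy 10 bases after the start. ANKRD1 also held the only match among the 12 promoters to TGANTCA, the pattern used here for AP-1, where N is any base. The matched letters were TGATTCA. This pattern was searched on both strands and found in 7.7% of all promoters. The CArG box, the motif of SRF, was in none of the 12 and in 1.3% of all promoters. A match of letters is a description of the sequence, not of binding.

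Resveratrol changed most of the pathway genes, and it did not move them in 1 direction. ANKRD1, WWTR1, AMOTL2 and LATS2 were upregulated, and AXL, AJUBA and TEAD1 were downregulated. YAP1, CCN1 and CCN2 did not pass the test. A differentially expressed gene (DEG) was one that passed edgeR's quasi-likelihood test at p under 0.05 with a false discovery rate under 0.1 (Benjamini-Hochberg, over all tested genes), the limits given in the methods of the study. By this rule 7 of the 10 genes were DEGs under resveratrol, where 56.9% of all tested genes were, 28.9% higher and 28.0% lower. In the same 7 genes the 6 resveratrol and 6 control libraries did not overlap, which held for 31.0% of all tested genes. The share of DEGs was thus near that of genes at large. The median log2 fold change of the 10 genes was 0.06, and that of all tested genes was 0.0037.

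The combination gave 8 DEGs of 10, against 59.8% of all tested genes, 29.9% higher and 29.9% lower. In 7 of them, all but YAP1, the combination and control libraries did not overlap, which held for 31.9% of all tested genes. WWTR1, ANKRD1, AMOTL2 and LATS2 were upregulated, and AXL, AJUBA, TEAD1 and YAP1 were downregulated. The comparisons of resveratrol and of the combination with the control share the same 6 control libraries. EGCG alone gave 1 DEG of 10, ANKRD1, which was downregulated, against 1.76% of all tested genes called and 0.859% called lower. An unadjusted p under 0.05 was found in 2 of the 10, and in 1570 of all 15476 tested genes. Over all genes the DEGs split evenly, with 4466 higher and 4341 lower for resveratrol and 4633 and 4625 for the combination. Scaling by library size alone moved this split to 6147 and 2857 and to 6041 and 3311, and shifted the median of all genes by 0.09 and 0.08 on the log2 scale, while it turned the direction of no pathway DEG.

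**Figure D1:**
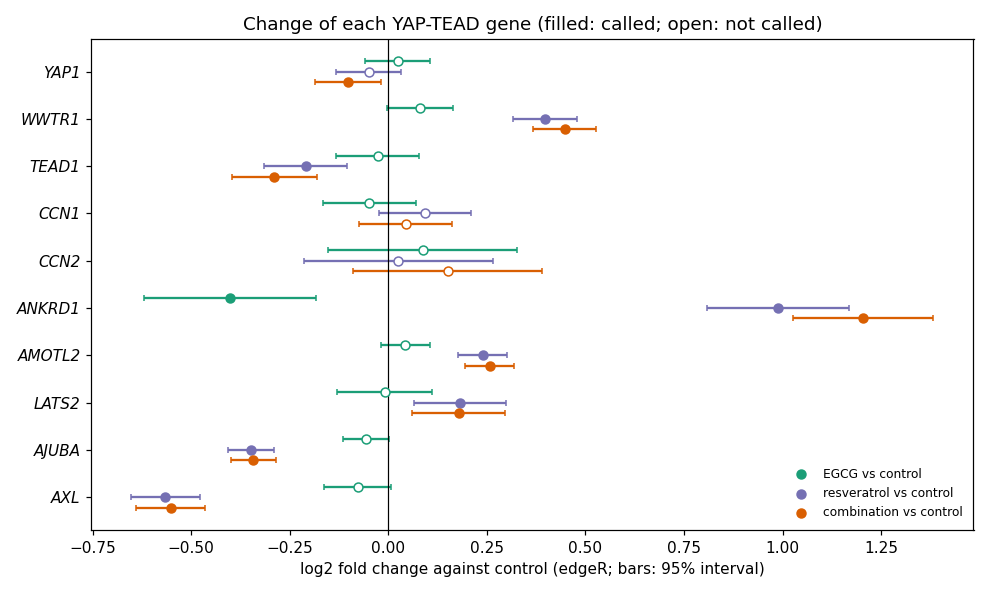
Log2 fold change of each YAP-TEAD gene against the untreated control (x axis, edgeR) for EGCG, resveratrol and the combination, 6 libraries a group. Bars are 95% intervals, filled points passed the test and open points did not. ANKRD1 has the widest range, from -0.40 under EGCG to 1.20 under the combination, and AXL lies at -0.57 and -0.55 under resveratrol and the combination.

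ANKRD1 (ENSG00000148677, chromosome 10, 90912096 to 90921087) encodes a cardiac ankyrin repeat protein that is induced by stretch and serves as a standard YAP readout. Its normalized counts, lowest, median and highest, were 64.1, 71.3 and 87.5 in the control and 47.1, 54.3 and 71.1 under EGCG. They were 128, 150.05 and 158 under resveratrol and 148, 175 and 186 under the combination. The control and EGCG libraries overlapped, the resveratrol and combination libraries overlapped, and no library of the first 2 groups reached the level of the last 2. With resveratrol it rose by 0.99 on the log2 scale (SE 0.0862, edgeR adjusted p = 4.67e-12), a 1.98-fold change, and under the combination by 1.20 (SE 0.0854, adjusted p = 1.4e-14), a 2.30-fold change. With EGCG it fell by 0.40 (SE 0.104, adjusted p = 0.0411). The last call was lost without control replicate 1 (adjusted p = 0.145), control replicate 3 (0.103) or EGCG replicate 1 (0.142).

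The response of ANKRD1 to EGCG differed with and without resveratrol. Added to resveratrol, EGCG went with a difference of 0.22 on the log2 scale (SE 0.0752, edgeR adjusted p = 0.0913), opposite in sign to its effect alone. This was the single DEG among the 10 genes between the combination and resveratrol, where 7.86% of all tested genes were DEGs, 4.01% higher and 3.86% lower, and DESeq2 gave an adjusted p of 0.122 for it. Leaving out 1 library at a time ended this call in 12 of 24 cases, with values from 0.18 to 0.26. The interaction of EGCG and resveratrol, the log2 change by EGCG in the presence of resveratrol minus that in its absence, was 0.62 (95% interval 0.35 to 0.89, edgeR adjusted p = 0.0186). ANKRD1 was the only 1 of the 10 genes with such an interaction, against 0.265% of all tested genes called and 0.207% called higher, and it kept this call without each of the 24 libraries in turn, with values from 0.56 to 0.69. It was 0.73 and 0.50 in replicates 1 to 3 and 4 to 6, and in neither set of 3 a group did it pass the test alone (adjusted p = 0.389 and 0.579). COL1A1, a fibroblast collagen gene that these cells also expressed, moved in the same way, at 10.2 to 12.7 FPKM under EGCG, 12.6 to 15.5 in the control, 15.0 to 17.9 under resveratrol and 17.5 to 20.05 under the combination. The 5 fibroblast markers together summed to 10.7 to 13.2, 13.1 to 15.8, 15.4 to 18.4 and 18.0 to 20.8 FPKM in the same order. This sum was nearly all COL1A1, at a median of 15.2 FPKM over the 24 libraries. The medians of COL1A2, LUM, PDGFRB and DCN were 0.202, 0.302, 0.0156 and 0 FPKM. COL1A2, the other marker tested, was not called for the interaction. The part of the fibroblast markers in the ANKRD1 result was not tested.

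**Figure D2:**
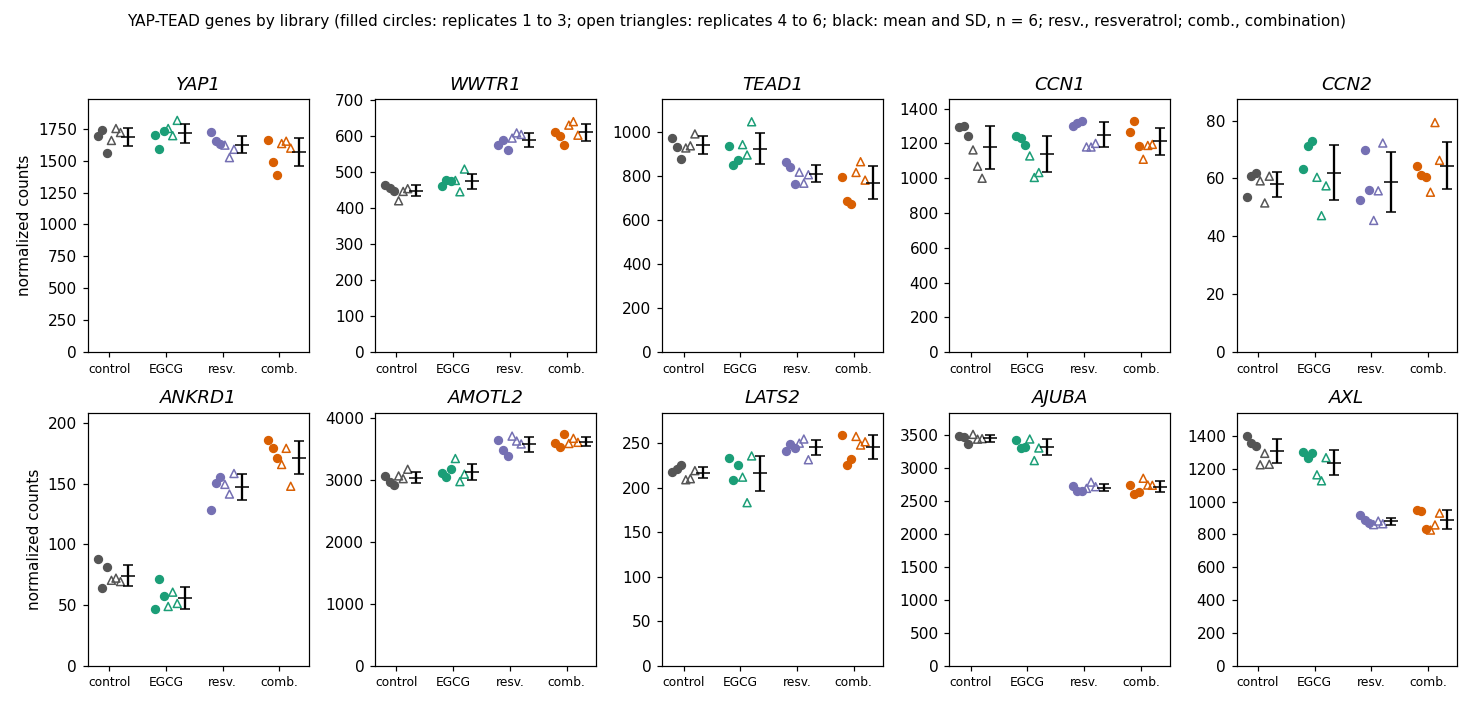
Normalized counts (y axis, linear from 0) of the 10 YAP-TEAD genes in each of the 24 libraries by group, with the mean and SD of 6 libraries in black. Filled circles are replicates 1 to 3 and open triangles replicates 4 to 6. ANKRD1 lies between 47.1 and 87.5 in the control and EGCG libraries and between 128 and 186 in the other 2 groups, while CCN2 lies between 45.5 and 79.3 in all 4.

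CCN2 (ENSG00000118523, chromosome 6, 131948176 to 131951372) encodes connective tissue growth factor, a secreted matricellular protein. Its mean level per length (FPKM) was the lowest of the 10 genes, and no comparison called it. Its normalized counts were 51.5, 60.0 and 61.8 in the control (lowest, median and highest), 47.2, 61.8 and 72.8 under EGCG, 45.5, 55.8 and 72.25 under resveratrol and 55.2, 62.7 and 79.3 under the combination. All 4 groups overlapped. The log2 fold change was 0.03 under resveratrol (95% interval -0.21 to 0.27) and 0.15 under the combination (-0.09 to 0.39). A rise of the size seen in ANKRD1 lay outside both intervals. Scaled by library size alone, the value for the combination was 0.23 and passed the test (adjusted p = 0.0817).

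CCN1 (ENSG00000142871, chromosome 1, 85580761 to 85584589), which encodes the related matricellular protein CYR61, was expressed far more highly. Its normalized counts were 1000.0, 1204 and 1302 in the control, 1004.5, 1159 and 1245 under EGCG, 1179.6, 1249 and 1331 under resveratrol and 1109, 1192 and 1332 under the combination. The 4 groups overlapped. The log2 fold change was 0.09 under resveratrol (95% interval -0.02 to 0.21, edgeR adjusted p = 0.166) and 0.04 under the combination (-0.07 to 0.16, adjusted p = 0.527). The resveratrol value turned into a call when the replicate set entered as a term (0.09, adjusted p = 0.0262), under library size scaling (0.18, adjusted p = 0.0075) and in replicates 4 to 6 alone (0.14, adjusted p = 0.0225), and also without control replicate 1 (0.12, adjusted p = 0.0854) or 2 (0.12, adjusted p = 0.0796). It was also called at either other limit on low counts (at least 1 count, 0.09, adjusted p = 0.0973, and at least 10 in every library, 0.12, adjusted p = 0.0776). The value for the combination turned into a call under library size scaling (0.13, adjusted p = 0.0586) and in replicates 4 to 6 alone (0.11, adjusted p = 0.0669).

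AXL (ENSG00000167601, chromosome 19, 41219223 to 41261766) encodes a receptor tyrosine kinase of the TAM family and is a direct YAP target in several carcinomas. Its normalized counts were 1224, 1316 and 1399 in the control, 1126.5, 1268 and 1305 under EGCG, 859.55, 875 and 918 under resveratrol and 827, 894 and 947 under the combination. Every library that received resveratrol was below every library that did not. AXL fell by 0.57 on the log2 scale under resveratrol (SE 0.0414, edgeR adjusted p = 5.06e-14) and by 0.55 under the combination (adjusted p = 7.37e-14), a loss of about 32% in each. With EGCG alone the value was -0.08 (95% interval -0.16 to 0.01, adjusted p = 0.521). ANKRD1 and AXL, both YAP targets, changed in opposite directions in the same libraries.

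Of the coactivators, WWTR1 rose under resveratrol and the combination, and against the control YAP1 passed the test under the combination alone, a call that depended on the scaling. WWTR1 (ENSG00000018408, chromosome 3, 149517235 to 149736714) had normalized counts of 420.3, 450.3 and 464 in the control, 445, 476 and 508 under EGCG, 560.5, 592 and 609 under resveratrol and 576, 607 and 640.2 under the combination. The resveratrol and combination libraries lay above all others. WWTR1 rose by 0.40 on the log2 scale under resveratrol (SE 0.0384, edgeR adjusted p = 5.62e-11) and by 0.45 under the combination (SE 0.0386, adjusted p = 2.66e-12). With EGCG the value was 0.08 (95% interval -0.0022 to 0.16), which did not pass.

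YAP1 (ENSG00000137693, chromosome 11, 102110447 to 102233424) had normalized counts of 1558, 1706 and 1751 in the control, 1589.9, 1713 and 1815 under EGCG, 1523, 1625 and 1726 under resveratrol and 1390.3, 1615.5 and 1662 under the combination. All 4 groups overlapped. With the combination it fell by 0.10 on the log2 scale (SE 0.0401, edgeR adjusted p = 0.0305), and under resveratrol the value was -0.05 (95% interval -0.13 to 0.03, adjusted p = 0.306). The call for the combination was lost under library size scaling (-0.02, adjusted p = 0.721), with only the 2 groups compared (-0.08, adjusted p = 0.121), without control replicate 5 (-0.07, adjusted p = 0.162), without combination replicate 3 (-0.07, adjusted p = 0.116) and without EGCG replicate 1 or 4 (-0.08 each, adjusted p = 0.0901 and 0.0898, with p over 0.05). It was also lost with at least 10 counts required in every library (-0.08, adjusted p = 0.117) and in replicates 4 to 6 alone (-0.07, adjusted p = 0.172). In those replicates YAP1 was called under resveratrol (-0.12, adjusted p = 0.0247). An antisense transcript (ENSG00000277459) with a mean normalized count of 14.3 overlaps YAP1, and its pseudogene YAP1P1 had 4.23, both far below the count of YAP1 itself.

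Per length, the group means of the sum of YAP1 and WWTR1 lay within 1 SD of each other, at 36.7 ± 1.37 FPKM in the control, 37.6 ± 1.51 under EGCG, 37.5 ± 1.08 under resveratrol and 36.8 ± 2.25 under the combination (mean ± SD, n = 6). The share of WWTR1 in this sum was 16.6 ± 0.657% in the control, 17.2 ± 0.669% under EGCG, 21.4 ± 1.12% under resveratrol and 22.6 ± 0.762% under the combination. In each library that received resveratrol the share was at least 19.994%, and in each other library it was at most 18.445%.

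TEAD1 (ENSG00000187079, chromosome 11, 12674421 to 12944737) had normalized counts of 881, 936 and 993 in the control, 849.9, 917 and 1049 under EGCG, 767, 813 and 864 under resveratrol and 676, 790.03 and 867 under the combination. Both groups under resveratrol lay below the control, and they overlapped EGCG. It fell by 0.21 on the log2 scale under resveratrol (SE 0.0505, edgeR adjusted p = 6.73e-04) and by 0.29 under the combination (SE 0.0512, adjusted p = 1.02e-05).

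The other TEAD genes and the VGLL cofactors, which compete with YAP for TEAD, were read as a list of 6 genes. With resveratrol 4 were higher and 1 lower, against 28.9% and 28.0% of all tested genes, and under the combination 5 were higher and 1 lower, against 29.9% each way. Scaled by library size alone, the counts were 5 and 1 in both. Of all 15476 tested genes 6147 were then higher and 2857 lower for resveratrol, and 6041 and 3311 for the combination. The median log2 fold change was 0.22 for the combination against -0.0015 over all tested genes. The gene that fell was TEAD4, the most abundant TEAD here per length, from 30.3 ± 1.56 FPKM in the control to 25.4 ± 1.23 under resveratrol and 23.2 ± 0.592 under the combination (log2 fold change -0.25 and -0.38, edgeR adjusted p = 1.87e-05 and 1.11e-08). By mean normalized count in the control TEAD1 was higher, at 942 against 601 for TEAD4. TEAD2 rose by 0.23 under the combination, VGLL3 by 0.71 and VGLL1 by 0.84, the last 2 from mean normalized counts of 46.8 and 15.1 in the control. In replicates 4 to 6 alone TEAD2 was not called (0.12, adjusted p = 0.249). The summed FPKM of TEAD1 to TEAD4 was 57.1 ± 1.77 in the control, 55.7 ± 2.44 under EGCG, 52.9 ± 1.36 under resveratrol and 50.6 ± 1.14 under the combination. TEAD4 made up 53.0% of this sum in the control and 45.8% under the combination, and TEAD2 and TEAD3 went from 14.47% and 14.82% to 18.96% and 18.91%. None of the 6 was a DEG under EGCG by edgeR or by DESeq2, where edgeR called 1.76% of all tested genes. An unadjusted p under 0.05 was found in 0 of them, against 1570 of all 15476.

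**Figure D3:**
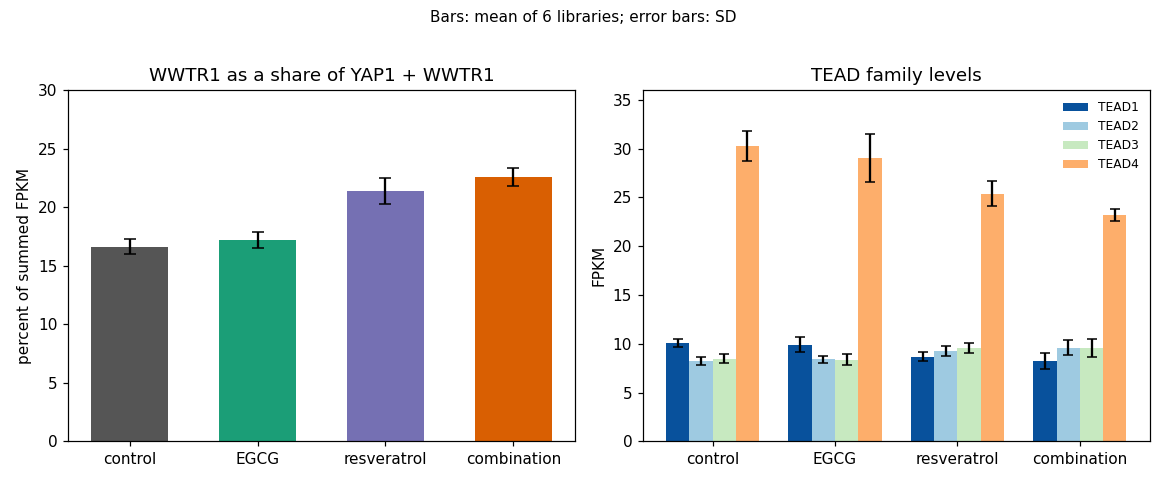
Left, WWTR1 as a percent of the summed FPKM of YAP1 and WWTR1 by group. Right, FPKM of TEAD1 to TEAD4 by group. Bars start at 0 and show the mean of 6 libraries with the SD, and the WWTR1 share goes from 16.6% in the control to 22.6% under the combination while TEAD4 goes from 30.3 to 23.2 FPKM.

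The genes that act back on the pathway changed less than ANKRD1 and AXL. AMOTL2 (ENSG00000114019, chromosome 3, 134355347 to 134375479), an angiomotin-like protein that is a YAP target and retains YAP outside the nucleus, had normalized counts of 2916, 3043 and 3173 in the control, 2974, 3104 and 3346.5 under EGCG, 3389.8, 3605 and 3708 under resveratrol and 3525, 3599 and 3743 under the combination. It rose by 0.24 on the log2 scale under resveratrol (SE 0.0299, edgeR adjusted p = 1.9e-08) and by 0.26 under the combination (adjusted p = 3.26e-09), and both groups lay above the control and EGCG libraries. The pseudogene RPL39P5 lies inside AMOTL2 on the same strand, with a mean normalized count of 20.8.

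LATS2 (ENSG00000150457, chromosome 13, 20973036 to 21061586), the kinase that inhibits YAP and is itself a YAP target, had normalized counts of 209, 218 and 225 in the control, 183, 219 and 236 under EGCG, 232, 247 and 255 under resveratrol and 226, 249.98 and 259 under the combination. Both groups under resveratrol lay just above the control, and they overlapped EGCG. It rose by 0.18 on the log2 scale under resveratrol (SE 0.0559, edgeR adjusted p = 0.00648) and by 0.18 under the combination (SE 0.0567, adjusted p = 0.00743). In replicates 1 to 3 alone neither call was made (adjusted p = 0.131 and 0.287).

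AJUBA (ENSG00000129474, chromosome 14, 22971177 to 22982551), a LIM protein of cell junctions that restrains LATS kinases, had the highest level per length (FPKM) of the 10 genes in the control. Its normalized counts were 3359.6, 3460.2 and 3510.4 in the control, 3113, 3309 and 3440.3 under EGCG, 2648, 2704 and 2787 under resveratrol and 2604, 2739.6 and 2845 under the combination. Every library under resveratrol was below every library without it. AJUBA fell by 0.35 on the log2 scale under resveratrol (SE 0.0277, edgeR adjusted p = 4.67e-13) and by 0.34 under the combination (adjusted p = 5.53e-13).

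The order of the levels per length changed under resveratrol. In the control it ran from AJUBA at 67.2 FPKM over AMOTL2 at 58.1, CCN1 at 55.3, YAP1 at 30.6, AXL at 29.2, TEAD1 at 10.1, WWTR1 at 6.10, LATS2 at 4.43 and ANKRD1 at 4.29 to CCN2 at 2.84. The libraries of AMOTL2 and CCN1, of YAP1 and AXL, and of LATS2 and ANKRD1 overlapped, so these neighbours were not separated. In the combination AMOTL2 came first at 69.4 FPKM, then CCN1 at 56.9 and AJUBA at 52.9, which overlapped, and AXL at 19.9 lay apart from YAP1 at 28.5. ANKRD1 stood sixth at 9.93, overlapping WWTR1 at 8.32, which overlapped TEAD1 at 8.26. CCN2 had the lowest mean in all 4 groups, at 2.84 to 3.16 FPKM, and under EGCG its libraries overlapped those of ANKRD1.

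Between the combination and EGCG, where 57.8% of all tested genes were DEGs, 28.7% higher and 29.1% lower, 8 of the 10 genes were. ANKRD1 was higher by 1.61 on the log2 scale, WWTR1 by 0.37, AMOTL2 by 0.21 and LATS2 by 0.19. AXL was lower at -0.47, AJUBA at -0.29, TEAD1 at -0.26 and YAP1 at -0.13, each with an edgeR adjusted p of at most 0.00867. The YAP1 call was lost under library size scaling (-0.05, adjusted p = 0.311) and that of LATS2 in replicates 1 to 3 alone (0.10, adjusted p = 0.383). CCN1 (0.09, adjusted p = 0.173) and CCN2 (0.06, adjusted p = 0.663) did not pass. CCN1 was called under library size scaling (0.17, adjusted p = 0.0137), in replicates 4 to 6 alone (0.15, adjusted p = 0.0173), with at least 10 counts in every library (0.12, adjusted p = 0.0775), with the replicate set as a term (0.10, adjusted p = 0.0254) and without EGCG replicate 1 (0.14, adjusted p = 0.0488) or 2 (0.13, adjusted p = 0.0639). Between the combination and resveratrol the 9 genes other than ANKRD1 had log2 differences from -0.08 in TEAD1 to 0.13 in CCN2, and none passed. In replicates 1 to 3 alone TEAD1 was lower by this comparison (-0.20, adjusted p = 0.0902), and in replicates 4 to 6 its value was 0.04.

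The kinase cascade and its upstream regulators, a list of 18 genes, moved in both directions. With resveratrol 4 were higher and 5 lower, and under the combination 5 and 5, where 56.9% and 59.8% of all tested genes were DEGs. The share called in this list was thus no higher than over all genes. STK3, which encodes the Hippo kinase MST2, fell by 0.54 on the log2 scale under the combination (SE 0.0613, edgeR adjusted p = 1.65e-09), from a mean normalized count of 256 to 176. TAOK1, a kinase upstream of it, fell by 0.30 and its paralog TAOK3 rose by 0.23. AMOT, the founding angiomotin, rose by 0.79 (adjusted p = 0.0075), from 8.79 to 15.4 counts. Scaled by library size alone, the split of this list was 8 higher and 2 lower for resveratrol and 9 and 3 for the combination. Of all 15476 tested genes 6147 were then higher and 2857 lower for resveratrol, and 6041 and 3311 for the combination. None of the 18 was a DEG under EGCG by edgeR or DESeq2, where edgeR called 1.76% of all tested genes. An unadjusted p under 0.05 was found in 0 of them, against 1570 of all 15476.

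Of 16 other genes known as YAP-TEAD targets, more were called lower than higher. With resveratrol 3 were higher and 9 lower, and under the combination 4 and 9, and the medians of their log2 fold changes were -0.16 and -0.15. Of all tested genes 28.9% were higher and 28.0% lower for resveratrol, and 29.9% each way for the combination. Scaled by library size alone the list counts were 4 and 7 for resveratrol and 6 and 7 for the combination. Of all 15476 tested genes 6147 were then higher and 2857 lower for resveratrol, and 6041 and 3311 for the combination. NT5E, the ecto-enzyme CD73, fell by 0.78 under the combination, FJX1, a secreted Golgi kinase homolog, by 0.68, and F3, the tissue factor that starts coagulation, by 0.61, each with an edgeR adjusted p of at most 2.33e-16. CCDC80, a matrix protein, rose by 0.56 (adjusted p = 1.51e-11). Between the combination and resveratrol 4 of the 16 were higher and 0 lower, against 4.01% and 3.86% of all tested genes. These were NUAK2 at 0.27, GADD45A at 0.21, IGFBP3 at 0.20 and CCDC80 at 0.16, of which all but CCDC80 are named here after their values were seen. The CCDC80 call was lost at an adjusted p under 0.05 (0.0557), in either replicate set alone (adjusted p = 0.351 and 0.192) and without resveratrol replicate 1 or 6 or combination replicate 2 or 5 (adjusted p = 0.111, 0.103, 0.124 and 0.133). NUAK2 was not called in replicates 4 to 6 alone (adjusted p = 0.175). With EGCG edgeR called 0 of 16, against 1.76% of all tested genes, and DESeq2 called 1. An unadjusted p under 0.05 was found in 3 of the 16, against 1570 of all 15476.

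SRF is a factor that answers to actin polymerization beside YAP. Of 15 listed genes of actin and SRF 13 were tested, and 3 were higher and 7 lower under resveratrol, against 28.9% and 28.0% of all tested genes. Under the combination 2 were higher and 8 lower, against 29.9% each way. Scaled by library size alone the counts were 4 and 6 for resveratrol and 3 and 6 for the combination. Of all 15476 tested genes 6147 were then higher and 2857 lower for resveratrol, and 6041 and 3311 for the combination. By this scaling VCL lost its lower call under resveratrol (edgeR adjusted p = 0.375). SRF and FLNA lost theirs under the combination (edgeR adjusted p = 0.632 and 0.0999, the latter with p over 0.05). These 3 genes are named here for those losses, after their values were seen. CNN2, a calponin, fell by 0.40 under the combination, ACTB by 0.34, TAGLN by 0.28 and the focal adhesion gene ZYX by 0.27. In replicates 4 to 6 alone TAGLN was not called (-0.19, adjusted p = 0.133). With EGCG edgeR and DESeq2 called 0 of the 13, where edgeR called 1.76% of all tested genes. An unadjusted p under 0.05 was found in 1 of the 13, against 1570 of all 15476.

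Of the relatives of CCN1, CCN2 and AXL, 4 of 8 were tested. Under the combination 3 of these were higher and 0 lower, against 29.9% of all tested genes each way. With the combination the TAM receptor ligands PROS1 and GAS6 rose by 1.04 and 0.30 (edgeR adjusted p = 8.68e-04 and 3.66e-05) and the receptor TYRO3 by 0.10 (adjusted p = 0.061), and CCN3 did not pass. PROS1 was low, at mean normalized counts of 7.41 in the control and 15.2 under the combination. TYRO3 was not called by DESeq2 (adjusted p = 0.0885), in replicates 4 to 6 alone (0.03, adjusted p = 0.702) or without any 1 of control replicates 2, 3 and 4 and combination replicates 1, 3 and 4 (0.07 to 0.10, adjusted p = 0.0927 to 0.186, with p over 0.05). Its call was also lost with a filter of at least 1 count (0.10, edgeR adjusted p = 0.144) and at an adjusted p under 0.05. With EGCG edgeR and DESeq2 called 0 of the 4, where edgeR called 1.76% of all tested genes. An unadjusted p under 0.05 was found in 1 of the 4, against 1570 of all 15476.

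Replicates 1 to 3 and 4 to 6 were compared as a check on culture density, to which YAP responds. No label or method used here says how these replicates differ, and density itself is not given. With the group in the model, 2 of the 10 genes differed between the sets, both lower in replicates 4 to 6, where 6.18% of all tested genes differed, 3.68% higher and 2.50% lower. CCN1 was lower by 0.18 on the log2 scale in replicates 4 to 6 (fold 0.883, SE 0.0255, edgeR adjusted p = 4.62e-06). In the control its normalized counts ran from 1244 to 1302 among replicates 1 to 3 and from 1000.0 to 1163 among replicates 4 to 6. With EGCG they were 1190.1 to 1245 and 1004.5 to 1128, and under resveratrol 1298 to 1331 and 1179.6 to 1201. In these 3 groups the sets did not overlap, and under the combination they did, at 1185 to 1332 and 1109 to 1195. Sets apart in this direction in all 4 groups were found in 0.0129% of tested genes, and CCN1 was not among them.

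AXL was lower by 0.09 in replicates 4 to 6 (SE 0.0252, adjusted p = 0.0398). Its sets were apart in the control, at 1338 to 1399 and 1224 to 1294, and under EGCG, at 1267.9 to 1305 and 1126.5 to 1267.5, and they overlapped in the other 2 groups. Sets were also apart in 1 group each for YAP1 (lower in replicates 4 to 6) and WWTR1 (higher), under resveratrol, and for CCN2 (lower), under EGCG. No share of all tested genes is given here for sets apart in fewer than 4 groups. These cases of CCN1, AXL, YAP1, WWTR1 and CCN2 describe the libraries and are not read as particular to these genes. With only the 6 control libraries CCN1 was still called and AXL was not (-0.12, adjusted p = 0.349). ANKRD1 (-0.06, 95% interval -0.19 to 0.06), CCN2 (-0.08, -0.25 to 0.09), YAP1 (0.03, -0.02 to 0.09) and WWTR1 (0.03, -0.03 to 0.09) did not pass. TEAD1 (0.07, 0.01 to 0.14) had an unadjusted p under 0.05 and an adjusted p of 0.238. Of the 16 other targets 4 were higher in replicates 4 to 6 and 1 lower, against 3.68% and 2.50% of all tested genes. MYOF (0.11), DOCK5 (0.15), PTPN14 (0.12) and ARHGEF17 (0.15) were higher and GADD45A (-0.10) was lower, named here after their values were seen. In the kinase list 2 of 18 were higher and 0 lower, and in the actin and SRF list 1 of 13 was higher and 1 lower. The lists of TEAD genes with VGLL cofactors and of relatives of CCN1, CCN2 and AXL had no call. The mitochondrial share was higher in replicates 4 to 6 throughout, as given above, and its part in these differences was not tested.

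**Figure D4:**
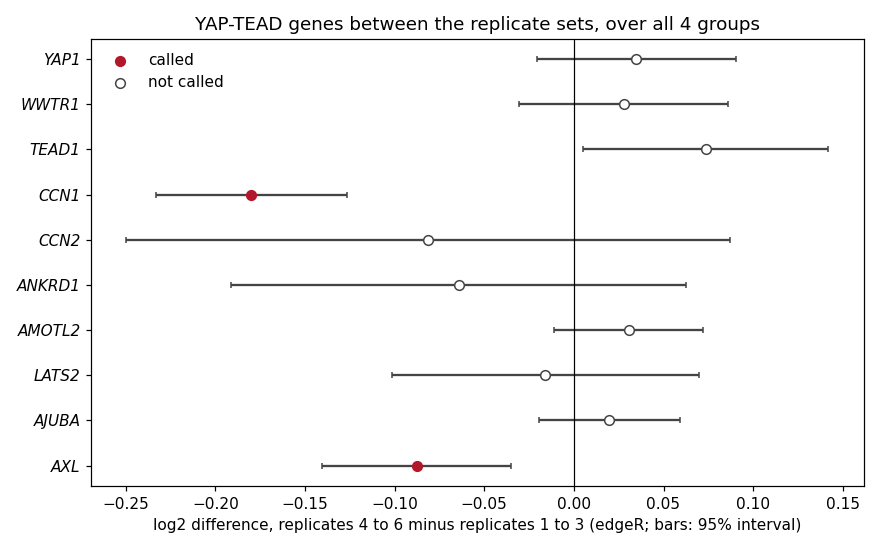
Log2 difference of replicates 4 to 6 minus replicates 1 to 3 for the 10 YAP-TEAD genes over all 4 groups (x axis, edgeR with the group in the model), with 95% intervals. Filled points passed the test: CCN1 at -0.18 and AXL at -0.09.

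No difference in the changes by treatment was detected between the sets. ANKRD1 changed by -0.43 and -0.37 under EGCG, by 0.90 and 1.08 under resveratrol and by 1.20 and 1.21 under the combination, in replicates 1 to 3 and 4 to 6 in turn. AXL changed by -0.61 and -0.52 under resveratrol, AJUBA by -0.35 and -0.34, WWTR1 by 0.35 and 0.45, AMOTL2 by 0.24 and 0.24 and TEAD1 by -0.16 and -0.26. These 6 genes were DEGs under resveratrol in each set fitted alone. For none of the 10 genes did the change by EGCG, resveratrol or the combination differ between the sets by edgeR's test of that difference or by DESeq2, and 0 had an unadjusted p under 0.05. Such differences were DEGs in 0.00%, 0.0129% and 0.0129% of tested genes, with 3 libraries in each cell of the design.

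By Pearson correlation of log2 CPM over the 24 libraries, the genes most like ANKRD1 were MARCKSL1 (r = 0.966), CDKN2B (0.963) and the ferritin pseudogene FTH1P11 (0.961), a near copy whose reads may belong to its parent gene. The most like CCN1 were RAB5IF (0.792), TCEAL3 (0.759) and SNX7 (0.745). For CCN2 the highest were SFXN3 (0.58), TBXAS1 (0.573) and BSN (0.571). The 24 points share the 4 groups, so these values describe the pattern over treatments as much as that over libraries.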

How the data were processed

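RNA-seq of MDA686TU cells in 4 groups of 6 libraries was used. Libraries were made by the authors with a stranded mRNA kit. The submitters' processing notes name bcl2fastq 2.17.1.14, Trimmomatic 0.36, FastQC 0.11.5, HISAT2 2.0.4, SAMtools 1.3.1, DESeq2 1.20.0 and the build GRCh38. The counting program, annotation release and strand setting are not given in the sources used here, so reads of overlapping and antisense genes may be shared. The authors deposited raw counts per gene, without normalization or pooling. The deposited table of normalized counts is a signal, and in each library it equalled the raw counts over a single size factor. The FPKM values deposited by the authors were checked to be these normalized counts at a constant ratio per gene, and were used to compare levels between genes.

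The quasi-likelihood test of edgeR 4.0.16 (R 4.3.3) was run on the raw counts of 24 libraries after filterByExpr and TMM. A DEG had a Benjamini-Hochberg adjusted p under 0.1 over 15476 genes and p under 0.05. The SE was the log2 fold change divided by the root of F. The replicate sets were tested with the group in the model, and their interaction with treatment in a model of all 8 cells. The biological coefficient of variation was 5.32%, and low counts limit the precision for CCN2, AMOT and PROS1. DESeq2 1.42.0, other scalings and filters, a replicate block, subsets and leaving out each library were alternatives. Symbols, loci and promoters came from GENCODE v44 and RefSeq. Named were all 10 genes, up to 4 called genes per list by size of the combination's change, and the 3 most correlated genes for CCN1, CCN2 and ANKRD1. The genes, lists and the split by replicate number were chosen with earlier results of these data known.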

Additional observations from a re-analysis of the deposited data

Results flagged for a closer look

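The effect of EGCG on ANKRD1 differed between cells with and without resveratrol, with an interaction of 0.62 on the log2 scale (edgeR adjusted p = 0.0186). Its mean normalized count was 74.1 ± 8.63 in the control and 56.0 ± 8.98 with EGCG, and 147 ± 11.05 with resveratrol and 171 ± 13.6 with the combination (SD, n = 6). COL1A1, one of the fibroblast markers checked, showed the same pattern, with an interaction of 0.46 (adjusted p = 7.87e-04), a change of -0.27 with EGCG alone (adjusted p = 0.00215) and of 0.19 when EGCG was added to resveratrol (adjusted p = 0.0169). The COL1A1 interaction was called in replicates 1 to 3 alone (0.55) and in replicates 4 to 6 alone (0.37). None of the 40 sets of 6 libraries, 10 genes in 4 groups, held a library beyond Dixon's limit for 6 values.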

How the results depend on the processing

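Of 28 pairs of gene and comparison that were called among the 10 genes, 299 values under alternatives other than leaving out a library gave the same direction and call in 279, lost the call in 20 and reversed in 0. Among the uncalled pairs 16 of 601 values gained a call. The call of ANKRD1 with EGCG fell to 0 genes in replicates 1 to 3 alone (-0.43, adjusted p = 0.39) and 4 to 6 alone (-0.37, 0.546), and ranged from 0 to 1 without single libraries. The single call between the combination and resveratrol became 0 under library size scaling, DESeq2, a filter of at least 1 count, an adjusted p under 0.05, only the 2 groups compared and replicates 4 to 6 alone, and ranged from 0 to 1 without single libraries. With replicates 1 to 3 alone the 1 gene called was TEAD1 in place of ANKRD1. The single interaction became 0 in either replicate set, where each group holds 3 libraries. The replicate set comparison called 1 gene in place of 2 in the 6 control libraries. The causes were not tested, beyond the fewer libraries in the subsets.

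The replicate numbers were not taken to pair the libraries, since 2 of 36 same-numbered pairs had a correlation of deviations over 0.1. The range was -0.01 to 0.13, and 31 of the 36 were above 0. The best match among 6 numbers was the own number in 15 of 36, where an even spread would give 6, and a number of the same replicate set in 31, where it would give 18. With the replicate number as a block the 10 genes gave 1, 8, 8, 1, 9 and 1 calls for EGCG, resveratrol, the combination, the combination against resveratrol and against EGCG, and the interaction. The block added CCN1 for resveratrol (0.09, adjusted p = 0.0229) and for the combination against EGCG (0.09, adjusted p = 0.0226).

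Over all genes, EGCG gave 273 DEGs, and 84 and 85 in the replicate sets alone. The combination against resveratrol gave 1217, 803 at an adjusted p under 0.05 and 399 in replicates 4 to 6. The interaction gave 41, 69 with DESeq2, 92 with at least 1 count, 85 with the block, 79 with the set as a term, and 6 and 24 in the replicate sets. The set comparison gave 957, 543 at an adjusted p under 0.05, 133 in the controls, and 588, 593 and 634 without control replicate 3, control replicate 6 or EGCG replicate 2. Scaling by library size turned 4440 higher and 4510 lower in the combination against EGCG into 5737 and 3250, and 570 and 387 in the set comparison into 485 and 560.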
